A study of Oryza sativa Japonica Group and Oryza sativa Indica Group with 20 samples.

Results

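LOC_Os10g40510 and LOC_Os10g40520 are neighbouring lipid-transfer-like loci of rice chromosome 10, described here through tissue culture in 2 cultivars. They were chosen by identifier, from a list of 3 neighbours, and on a measured value: the high FPKM of the first, LOC_Os10g40510, in failed callus. LOC_Os10g40510 and LOC_Os10g40520 each had 1 row among the 54170 loci of the deposited table, and both passed the filter on low values. LOC_Os10g40530 was not analysed here. Because they chose it, the failed-callus values of LOC_Os10g40510 are given as a description with no test. The table pairs its identifiers with no gene names, so "lipid-transfer-like" is only the name under which they were listed, and the identity of the embryo and callus samples was not checked against marker genes.

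The cultivars were Tainung 67 (TNG67), a japonica, and Indica Rice 64 (IR64), an indica. Each gave 1 RNA library at each of 5 stages: the embryo (T0), callus induced from seed on N6D medium, which held 2.5 mg/L 2,4-D, a synthetic auxin (T1), callus moved to fresh N6D (T2), and callus on REIII M2 medium (0.02 mg/L NAA, an auxin, with 2 mg/L BAP, a cytokinin) that had regenerated (TS) or had failed to (TF). No allele or transgene was involved. With 1 library in each cultivar and stage, every level below is a single measurement, and the labels do not say how many seeds or cultures stood behind a library. The TNG67 T1 library is titled RNA-seq but carries a bisulfite protocol, a doubt that holds for every TNG67 T1 value below. Callus is a mixed mass of dividing plant cells, so fewer cells of a type and less RNA per cell cannot be told apart in any value below. The 10 libraries summed to between 602209 and 1063007 FPKM (fragment counts scaled to gene length and to the mapped reads of the library), apart from the IR64 embryo at 3792962, and their read depth is unknown.

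Plant lipid transfer proteins are small, secreted, cysteine-rich proteins whose folded chain encloses a cavity that can hold a fatty acid or another lipid. They are best known from epidermal and other surface tissues, where they have been linked to the deposition of cutin, suberin and wax, and some take part in defence against microbes. Their fold is shared by a wider family that includes seed storage albumins and inhibitors of proteases and amylases, and genes of this family often lie side by side in plant genomes.

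LOC_Os10g40510 was most abundant in failed callus in both cultivars. In TNG67 it stood at 2.77 FPKM in the embryo, 10.3 in T1, 1.33 in T2, a listed 0 in TS and 63.3 in TF. In IR64 it stood at 0.506 FPKM in the embryo, 11.2 in T1, 23.8 in T2, 18.1 in TS and 348 in TF. The failed calli were thus the highest library of each cultivar, and the TNG67 TF library lay above all IR64 libraries other than IR64 TF. In rank, the locus passed 99.6% of all loci of the IR64 TF library, against 92.3% in IR64 T2 and 89.6% in IR64 TS. It passed 97.0% of those of TNG67 TF, against 83.7% in TNG67 T1. It was a minor transcript of both embryos, where it passed 62.3% of loci in IR64 and 72.0% in TNG67. These percentages count all 54170 loci, of which 18238 were listed at 0 in all libraries, so they overstate its place among expressed loci.

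The distance of failed callus from the other stages differed in size with the stage it was set against. Within IR64 the TF level of LOC_Os10g40510 was 19.2 times that of TS, 14.6 times that of T2, 31.1 times that of T1 and 688 times that of the embryo, the last resting on a low embryo value. Within TNG67 it was 47.8 times that of T2, 6.17 times that of T1 and 22.8 times that of the embryo, and no ratio is given to TS, where the locus was listed at 0. On the (FPKM + 1) scale LOC_Os10g40510 was at least 4-fold higher in TF than in TS in both cultivars, which held for 0.131% of the 22913 loci tested (2.43% in TNG67 and 2.68% in IR64 taken singly). It was also 1 of 4 loci in all, 0.0175% of those tested, at least 4-fold higher in TF than in each of the other 4 stages in both cultivars. These shares follow from how the locus was chosen and carry no test.

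**Figure D1:**
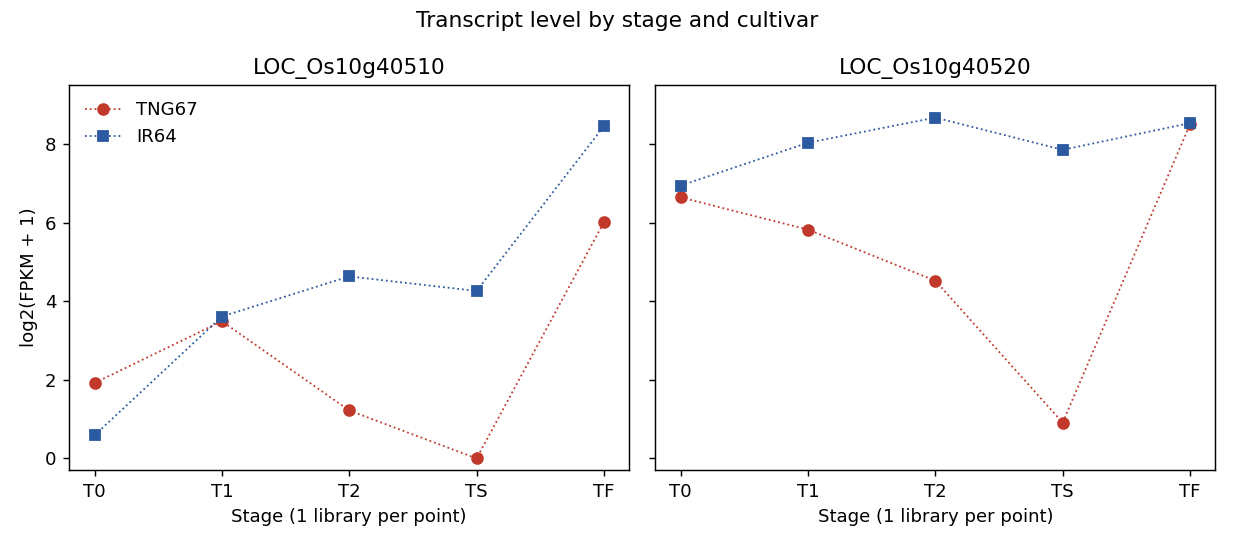
Level of LOC_Os10g40510 (left) and LOC_Os10g40520 (right) as log2(FPKM + 1) at each stage, in TNG67 (red circles) and IR64 (blue squares), each point 1 library, with dotted lines only joining points of a cultivar. For LOC_Os10g40510 the highest point of both cultivars is TF, at 6.01 in TNG67 and 8.45 in IR64, whereas LOC_Os10g40520 stays between 6.94 and 8.67 in IR64 and drops to 0.91 in TNG67 TS.

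LOC_Os10g40520 was an abundant transcript in most libraries and followed a different course in each cultivar. In TNG67 it stood at 99.0 FPKM in the embryo, 55.5 in T1, 21.9 in T2, 0.884 in TS and 361 in TF. In IR64 it stood at 122 FPKM in the embryo, 259.9 in T1, 406 in T2, 230.1 in TS and 369 in TF. The TNG67 values thus ran down from the embryo to successful callus and were highest in failed callus, while in IR64 the 4 calli all lay above the embryo and the highest was T2. The TF libraries of the cultivars stood close together, with 361 FPKM in TNG67 and 369 in IR64. The TS libraries lay farthest apart, at 0.884 and 230.1 FPKM.

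Failed callus stood out from the other calli for LOC_Os10g40520 in TNG67 and not in IR64. In TNG67 the TF level was 408 times that of TS, 16.5 times that of T2 and 6.51 times that of T1. In IR64 it was 1.6 times that of TS, 0.91 times that of T2 and 1.42 times that of T1. Against the embryo the ratio was 3.65 in TNG67 and 3.03 in IR64. Of the 3 comparisons with other calli, (FPKM + 1) was at least 4-fold higher in TF in 3 in TNG67 (background shares of 2.43% against TS, 2.38% against T2 and 2.75% against T1) and in 0 in IR64 (2.68%, 2.58% and 3.82%). The difference between the cultivars in this ratio was not tested, as each side of it is 1 library.

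Few of the steps in the order of the LOC_Os10g40520 levels were larger than the spread of the fitted model. The moderated SD of a library around a common stage and cultivar effect was 1.62 on the log2 scale, or 2.29 for the difference of 2 libraries. Of the 9 steps between neighbouring libraries in the order, only that from TNG67 T2 to TNG67 TS, 3.61, was larger than this. The 5 highest libraries of LOC_Os10g40520, the 4 IR64 calli and TNG67 TF, spanned 7.85 to 8.67. Libraries further apart in the order could differ by more than 2.29, as TNG67 TF did from T2 (3.98) and T1 (2.68), though not from the embryo (1.86). The spread reflects how far the cultivars departed from shared stage effects, not the error of a library. It therefore cannot decide whether single libraries differ.

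The balance between the members also moved, a measure that does not depend on how a library was scaled. LOC_Os10g40520 was the more abundant of the pair per length in all 10 libraries. In IR64 its FPKM was 240.4 times that of LOC_Os10g40510 in the embryo, 23.2 times in T1, 17.1 times in T2, 12.7 times in TS and 1.06 times in TF. In TNG67 it was 35.7 times in the embryo, 5.41 times in T1, 16.5 times in T2 and 5.7 times in TF. LOC_Os10g40510 made up 48.6% of the summed FPKM of the pair in IR64 TF and 0.41% in the IR64 embryo. In TNG67 its share was 14.9% in TF and nearly the same, 15.6%, in T1, so a raised share was not limited to failed callus there.

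**Figure D2:**
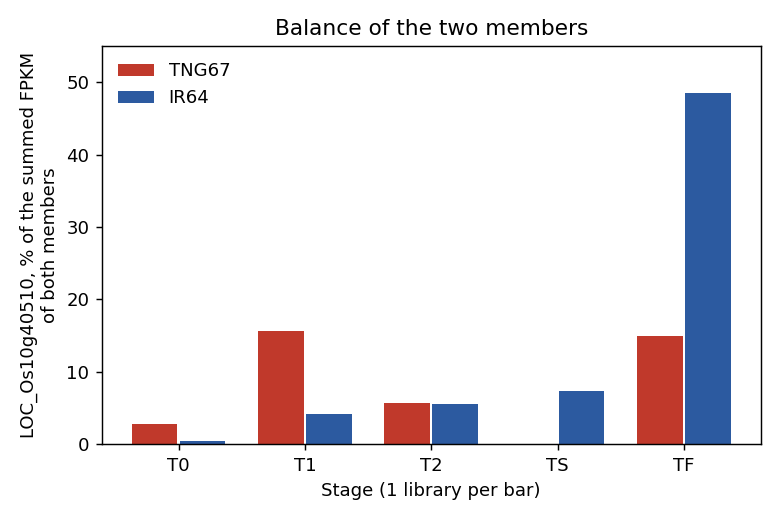
Share of LOC_Os10g40510 in the summed FPKM of LOC_Os10g40510 and LOC_Os10g40520 at each stage, in percent, for TNG67 (red) and IR64 (blue), each bar 1 library. IR64 TF stands at 48.6%, the other IR64 libraries at 0.41 to 7.3%, and TNG67 T1 and TF at 15.6% and 14.9%; the TNG67 TS share is 0 because LOC_Os10g40510 is listed at 0 there.

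TS and TF calli grew on the same medium with opposite outcomes, and LOC_Os10g40520 was tested between them over both cultivars. Its mean log2(FPKM + 1) was 8.52 in TF and 4.38 in TS, a difference of 4.13 (SE 1.62, higher in TF in 2 of 2 cultivars) that did not pass limma's test (adjusted p = 0.99). limma called 0.0% of the 22913 loci in this comparison, and no other tool was run. Its unadjusted p was under 0.05 for 960 loci, fewer than that cutoff would pass if no locus differed. The size of the difference rested on TNG67, as it was 1.5 without the TNG67 TS library and 2.45 without TNG67 TF. limma's adjusted p ranged from 0.58 to 1 over the alternatives.

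**Figure D3:**
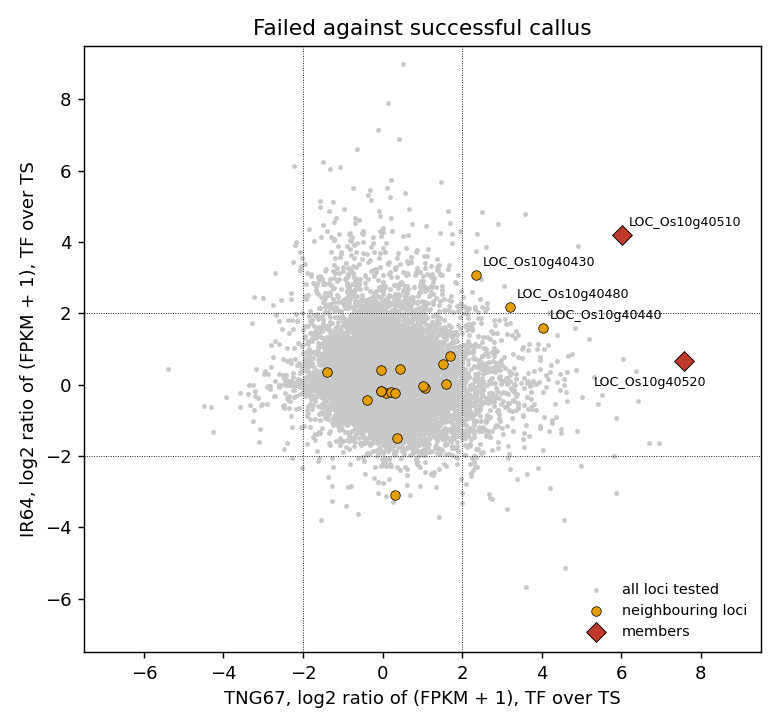
Log2 ratio of (FPKM + 1) in TF over TS in TNG67 (horizontal) and IR64 (vertical) for all loci tested (grey), the neighbouring loci (orange) and both members (red diamonds); dotted lines mark 4-fold. LOC_Os10g40510 lies past 4-fold in both cultivars, with a TNG67 position set by the pseudocount because its TS value is 0, while LOC_Os10g40520 lies at 7.59 in TNG67 and 0.68 in IR64.

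The calli other than the failed ones (T1 and T2 on 2,4-D medium, TS on NAA and BAP) were compared with the embryo, so that no failed-callus level entered the difference. LOC_Os10g40510 averaged 2.87 on the log2(FPKM + 1) scale in these calli and 1.25 in the embryos, a difference of 1.61 (SE 1.07, limma adjusted p = 0.27). That SE and p still drew on the TF values that chose the locus, since the spread was fitted on all 10 libraries. Fitted without the TF libraries, which leaves those values out, the difference had an SE of 1.16 and a limma adjusted p of 0.32. LOC_Os10g40520 averaged 5.97 in the calli and 6.79 in the embryos, a difference of -0.82 (SE 1.32, limma adjusted p = 0.65). Neither passed the test, which called 32.4% of all loci tested. Neither direction was steady, since LOC_Os10g40510 gave -0.33 without the IR64 embryo, and LOC_Os10g40520 gave 0.69 without the TNG67 embryo and 0.05 without TNG67 TS. In single stages, T1 and embryo of LOC_Os10g40510 were 11.2 and 0.506 FPKM in IR64 and 10.3 and 2.77 in TNG67, so the newly induced calli of the cultivars stood at about the same level.

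Both members had lower mean levels in TNG67 than in IR64 over the 5 stages. For LOC_Os10g40510 the means were 2.53 and 4.31 on the log2(FPKM + 1) scale, a difference of -1.78, lower in TNG67 in 4 of 5 stages, which includes the failed-callus values and is given with no test. In a fit on the 8 libraries other than TF, added after the data were seen, its difference was -1.62 (SE 1.01) and did not pass (limma adjusted p = 0.29). For LOC_Os10g40520 the means over the 5 stages were 5.28 and 8.0, a difference of -2.72 (SE 1.03, lower in 5 of 5 stages) that did not pass (limma adjusted p = 0.094, range over the alternatives 0.063 to 0.24). In this comparison limma called 27.3% of all loci tested. The stages differed in how far the cultivars lay apart. For LOC_Os10g40520 the log2 ratio of TNG67 over IR64 was -0.3 in the embryo, -2.21 in T1, -4.15 in T2, -6.94 in TS and -0.03 in TF. For LOC_Os10g40510 it was 1.33 in the embryo, -0.12 in T1, -3.41 in T2, -4.26 in TS and -2.44 in TF. The stages served as the replicates of a cultivar, and the reference genome was a japonica one for either cultivar, with only unique alignments kept. How far that mapping moved the values of IR64, or of loci with similar copies nearby, was not tested.

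The loci around the members were described next, taken by identifier number alone. Identifiers of a chromosome are numbered along it, and 21 other loci of the table lay within 100 of the members' numbers, of which 19 passed the filter on low values. No file names their products. In TF over TS, 3 of the 19 were at least 4-fold higher in TNG67 (2.43% of all loci tested) and 2 in IR64 (2.68%), and the median log2 ratios were 0.36 and -0.03 against -0.08 over all loci in both cultivars. Within 50 numbers the counts were 1 of 9 in each cultivar, and within 500 they were 4 of 56 in TNG67 and 2 of 56 in IR64. limma called none of the 19 in TF minus TS, as it called none of all loci. Of all loci, 960 had an unadjusted p under 0.05, fewer than that cutoff would pass if no locus differed. TF was the highest of the 4 calli in both cultivars for LOC_Os10g40430, LOC_Os10g40440, LOC_Os10g40480 and LOC_Os10g40610, 4 of the 19, where this held for 10.4% of all loci tested. For LOC_Os10g40610 it rested in IR64 on nearly equal single libraries, 6.19 FPKM in TF and 6.07 in TS.

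Like LOC_Os10g40510, LOC_Os10g40440, LOC_Os10g40480 and LOC_Os10g40430 reached their highest callus level in TF, but their embryo levels lay nearer to the TF level or above it. LOC_Os10g40440 stood at 1265 FPKM in the TNG67 embryo, 51.5 in T1, 16.5 in T2, 36.7 in TS and 615 in TF. In IR64 it stood at 508, 64.3, 74.4, 173 and 519 FPKM in the same order. In FPKM its failed calli thus reached about the embryo level in IR64 and lay below it in TNG67. By rank within the library it stood higher in TF than in the embryo in both, 101st against 118th in TNG67 and 117th against 176th in IR64. LOC_Os10g40480 stood at 159.7 FPKM in the TNG67 embryo, 5.74 in T1, 1.58 in T2, 2.09 in TS and 27.4 in TF, and in IR64 at 603, 45.4, 53.0, 92.9 and 422. Its FPKM was highest in the embryo in both cultivars. In IR64, where the embryo library had the far larger FPKM sum, its rank differed little, 144th in the embryo and 155th in TF. LOC_Os10g40430 stood at 5.1 FPKM in the TNG67 embryo, 0.623 in T1, a listed 0 in T2, 0.601 in TS and 7.09 in TF, and in IR64 at 22.5, 25.2, 13.8, 21.2 and 187. It was highest in TF in both cultivars, but its TNG67 TF value of 7.09 FPKM lay close to the embryo's 5.1.

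**Figure D4:**
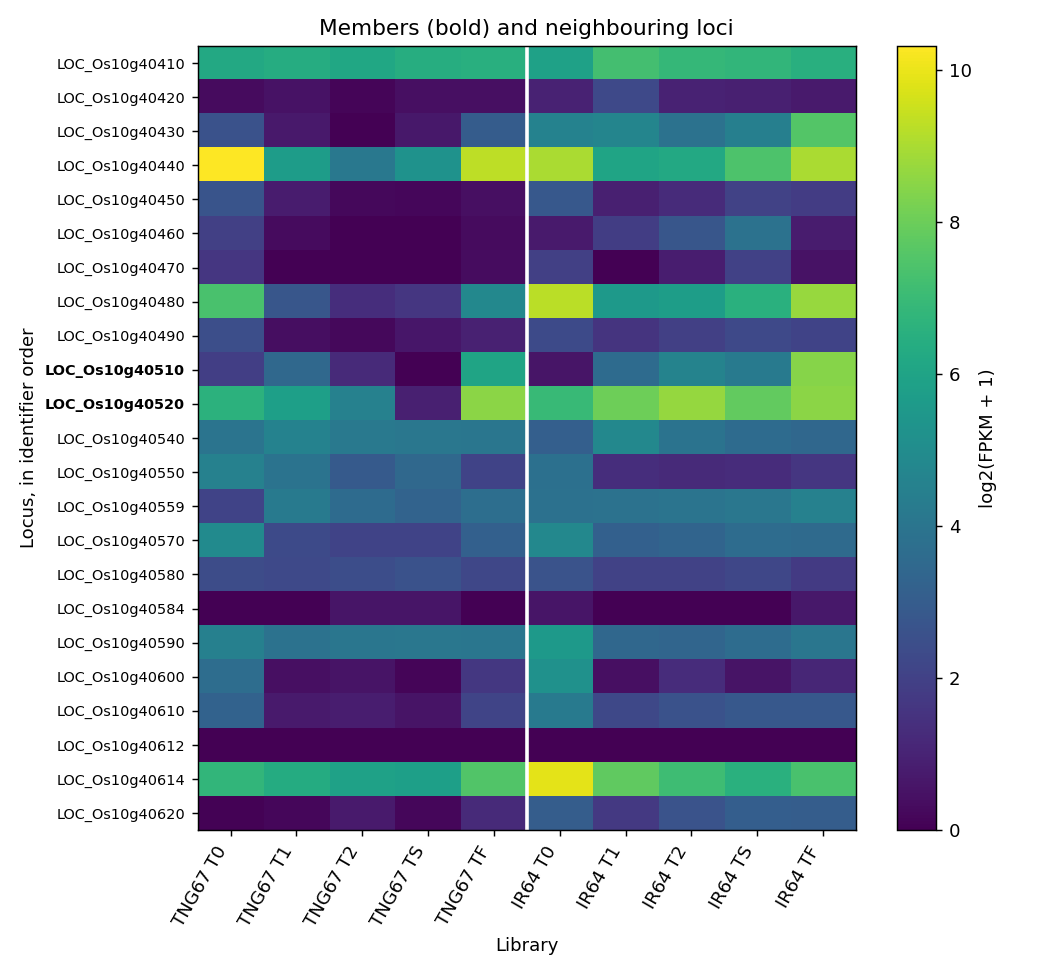
Level as log2(FPKM + 1), by colour, of the members (bold) and the 21 neighbouring loci in identifier order (rows) in the 10 libraries (columns; 1 library each, TNG67 left and IR64 right). LOC_Os10g40440 is bright in both embryos and in failed callus. LOC_Os10g40480 is bright in both embryos and in IR64 TF, but stands at only 4.83 in TNG67 TF. LOC_Os10g40510 is dark in the embryos and brighter in failed callus, above all in IR64.

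Against the embryo, 9 of the 19 neighbours were lower in T1, T2 and TS under limma's test and none was higher, where 17.8% of all loci were called lower and 14.6% higher. Their median log2 difference was -1.27, against 0.04 over all loci. The balance depended on the window: within 50 numbers 4 of 9 loci were lower and 0 higher (median -1.25), but within 500 numbers 12 of 56 were lower and 10 higher (median 0.1). LOC_Os10g40480 fell by 4.35 (SE 0.58, limma adjusted p = 0.004), LOC_Os10g40600 by 3.88 (SE 0.4, limma adjusted p = 0.0022) and LOC_Os10g40440 by 3.85 (SE 0.72, limma adjusted p = 0.01). The call of LOC_Os10g40600 was kept in all 19 alternatives, that of LOC_Os10g40440 was lost without the TNG67 embryo (limma adjusted p = 0.054) and that of LOC_Os10g40480 without the replicate block (0.15). LOC_Os10g40570, LOC_Os10g40610, LOC_Os10g40550, LOC_Os10g40590, LOC_Os10g40450 and LOC_Os10g40490 were the other 6 that fell, by 1.25 to 2.13. Of these, LOC_Os10g40570 kept its call in all 19 alternatives, LOC_Os10g40610 in 18 of 19 (0.11 without the replicate block), LOC_Os10g40450 in 16 of 18, LOC_Os10g40550 in 13 of 19, LOC_Os10g40590 in 8 of 19 and LOC_Os10g40490 in 5 of 18. Without the replicate block 4 of the 19 were called lower. The fits without TNG67 TF, without IR64 TF and without any TF library are in effect the same here, so these tallies count it more than once. The members, at 1.61 and -0.82, were not among the loci called.

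Between the cultivars, 5 of the 19 neighbours were lower in TNG67 under limma's test and 1 was higher, against 13.3% and 14.0% of all loci. LOC_Os10g40430 differed by -3.63 (SE 0.37, limma adjusted p = 0.0013) and LOC_Os10g40480 by -3.58 (SE 0.45, limma adjusted p = 0.003, but 0.062 without the replicate block). LOC_Os10g40620, LOC_Os10g40610 and LOC_Os10g40490 were the other 3 called lower (LOC_Os10g40490 in 7 of 19 alternatives, LOC_Os10g40610 in 19 of 20, with 0.1 without the replicate block), and LOC_Os10g40550 was the 1 called higher. The count of 5 was 8 on the calli alone, 3 at a mean of at least 5 FPKM and 2 without the replicate block. With either embryo library left out it was again 8, but these are in effect the same fit as the calli alone. The stage term absorbs the library that remains, so leaving out either library of a stage repeats a fit in these tallies. Among the neighbours that reached 10 FPKM, LOC_Os10g40410 ranged from 59.1 to 150.4 FPKM over the 10 libraries. LOC_Os10g40540, next to LOC_Os10g40520 in the table, ranged from 7.81 to 27.3 FPKM, and LOC_Os10g40559 from 3.27 to 22.3. LOC_Os10g40614 ranged from 56.0 to 949.7 FPKM, with its highest value in the IR64 embryo. LOC_Os10g40460 lay more than 4-fold below its TS level in IR64 TF, at 0.719 against 13.8 FPKM. A fall of at least 4-fold on the (FPKM + 1) scale held there for 0.441% of all loci tested.

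The loci whose pattern was most like each member's lay on other chromosomes. Likeness was the Pearson correlation of log2(FPKM + 1) over the 10 libraries. It is given as a description, since the libraries share cultivars and stages and the loci were picked as the highest of 22912. For LOC_Os10g40510 it also includes the TF values that chose the locus, which favours loci high in TF. For LOC_Os10g40510 the 5 highest were LOC_Os03g50970 at 0.951, LOC_Os01g11620 at 0.947, and LOC_Os07g46350, LOC_Os03g28160 and LOC_Os02g03294 at 0.928 each. LOC_Os03g28160 was the most abundant of them, with 27.0 and 201 FPKM in the failed calli of TNG67 and IR64 against 3.65 to 23.0 in the other 8 libraries. LOC_Os07g46350 reached 7.71 and 23.1 FPKM in the failed calli and 0.128 to 2.5 elsewhere. The other 3 stayed under 10 FPKM in all libraries. LOC_Os10g40520 correlated with LOC_Os10g40510 at 0.731 and came 844th in that order, behind loci of other chromosomes and ahead of LOC_Os10g40430, 1426th at 0.665. By Spearman's correlation it came 119th, at 0.867.

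For LOC_Os10g40520 the 3 most similar loci were LOC_Os06g47200 at 0.93, LOC_Os02g51740 at 0.923 and LOC_Os12g26880 at 0.922. LOC_Os12g26880 stood at 41.5 FPKM in the TNG67 embryo, 9.16 in T1, 4.57 in T2, 2.55 in TS and 57.8 in TF. In IR64 it stood at 57.4, 72.4, 96.5, 75.6 and 151 FPKM. It thus shared with LOC_Os10g40520 the low TNG67 TS value and the high calli of IR64. LOC_Os06g47200 moved far less, from 21.8 FPKM in TNG67 TS to 61.7 in IR64 TF, a range far narrower than that of LOC_Os10g40520.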

How the data were processed

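RNA was sequenced in 10 libraries, from 100 ng of RNA each, per the labels' protocols. Per the labels, reads were checked with FastQC and mapped to IRGSP-1.0 (Nipponbare, a japonica) by Bowtie, up to 2 mismatches being allowed; unique alignments were kept, and the authors made FPKM per gene with TopHat. The sources used here give no tool versions, gene models or strand setting. The protocol attached to the TNG67 T1 RNA library describes bisulfite preparation, while its title names RNA-seq. No values of the 10 bisulfite libraries were used here.

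The deposited FPKM values filled 55166 rows, for 54170 loci, and rows of the 968 loci on more than 1 row were summed; the members had 1 row each. In 0 of 45 pairs of libraries did over 10% of the ratios of low values (at most 0.2 FPKM) share 1 bin, so read depth was not recovered, and a 0 is described as listed. The RefSeq table used here matched 0 of 54170 identifiers, so no names, coordinates or sequences are given.

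The test was limma 3.58.1 (R 4.3.3) on log2(FPKM + 1) with additive cultivar and stage terms, an intensity trend and Benjamini-Hochberg adjustment at 0.05 over the 22913 loci that reached 1 FPKM in 2 libraries or more. The 4 residual degrees of freedom reflect how far the cultivars departed from shared stage effects, not the spread between cultures. Within a cultivar, an (FPKM + 1) ratio of at least 4 was counted with no p. Named loci were the members, the 5 and 3 loci most correlated with them, and neighbours reaching 10 FPKM; the 3 further neighbours named for a call or a count (LOC_Os10g40450, LOC_Os10g40490 and LOC_Os10g40620) were chosen after their values were seen. Members, lists and tests were chosen with earlier results of these data known. Alternatives were no filter or a floor of 5 on the mean FPKM, pseudocounts of 0.1 or 5, quantile or median-ratio scaling, no trend, no replicate block, each library left out, windows of 50 and 500 identifier numbers, Spearman's correlation and, added after the data were seen, the 8 calli alone and the 8 libraries other than TF. Tables were handled in pandas 2.3.3 and numpy 2.4.6 under Python 3.11.15, and plots drawn with matplotlib 3.10.9.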

Additional observations from a re-analysis of the deposited data

Results flagged for a closer look

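The following changes ran in opposite directions in TNG67 and IR64, as log2 ratios of (FPKM + 1) between single libraries, so the difference between the cultivars was not tested. LOC_Os10g40510 differed by -2.28 between T2 and T1 in TNG67 and by 1.02 in IR64. LOC_Os10g40520 differed between the same stages by -1.3 in TNG67 and 0.64 in IR64. Between T1 and the embryo, LOC_Os10g40520 differed by -0.82 in TNG67 and 1.09 in IR64. Between TF and T2 it differed by 3.98 in TNG67 and -0.14 in IR64, the last smaller than the other changes given here.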

How the results depend on the processing

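The comparison of TF with TS called 0 loci in all alternatives other than the fit with no filter, which called 1. LOC_Os10g40520 passed there in none of the 19 alternatives. Its difference of 4.13 is set by the TF and TS libraries alone. Leaving out other libraries, or changing the filter, block or trend, therefore could not move it. With a TS or TF library left out, LOC_Os10g40520 ran from 1.5 to 6.77, and with other pseudocounts or scaling from 3.31 to 4.6. Its TNG67 ratio of TF over TS, 7.59 on the log2 scale, was 8.52 at a pseudocount of 0.1 and 5.96 at 5; the IR64 ratios of both members stayed within 1.5 times. For calli against the embryo, values with each library left out ran from -0.33 to 3.56 for LOC_Os10g40510 and from -2.34 to 0.69 for LOC_Os10g40520, the latter turning at 0.05 as well. Quantile scaling gave 1.41 for LOC_Os10g40510 and -0.25 for LOC_Os10g40520 there. The count of 7426 loci was 3613 with no replicate block and 4557 to 7480 with each library left out, and the 9 neighbours called lower became 4 and 6 to 8. Between the cultivars, LOC_Os10g40510 ran from -2.56 to -1.16 and LOC_Os10g40520 from -3.4 to -1.67 with each library left out; LOC_Os10g40510, given with no test, stood at -2.38 at a pseudocount of 0.1 and -2.56 on the 8 calli alone. The count of 6261 loci was 3433 at a mean of at least 5 FPKM, 3956 with no replicate block and 2433 to 8889 with each library left out. The 5 neighbours called lower became 3, 2 and 4 to 8, and 8 on the calli alone. In this comparison, leaving out either library of a stage gives in effect the same fit as leaving out the stage. Fewer loci or libraries entered some of these fits; otherwise the cause was not tested. With Spearman's correlation 3 of the 5 loci most like LOC_Os10g40510 were again among the first 5, and 0 of the 3 for LOC_Os10g40520. The neighbours' median TF over TS stayed at 0.1 to 0.32 in TNG67 and -0.19 to -0.18 in IR64 with other windows. With 1 library per cultivar and stage and unknown depth, low FPKM values such as those of LOC_Os10g40510 in the embryos have no measured error.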

Other observations

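Besides LOC_Os10g40510, 3 loci were at least 4-fold higher in TF than in each of the other 4 stages in both cultivars on the (FPKM + 1) scale; they were picked from their values. LOC_Os01g47780 on chromosome 1 stood at 63.0 and 169.3 FPKM in the failed calli of TNG67 and IR64, and at 7.36 to 9.35 and 9.96 to 33.8 in the other libraries of these cultivars. LOC_Os06g40170 on chromosome 6 stood at 13.0 and 37.1 FPKM in the failed calli, and at 0.071 to 1.92 and 0.055 to 8.25 elsewhere. LOC_Os07g46350 on chromosome 7, also among the loci most like LOC_Os10g40510, stood at 7.71 and 23.1 FPKM. None of these has a replicate within a cultivar and stage.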
